A study of Mus musculus with 3 samples.

Results

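Replication-dependent histone genes supply the core histones H2A, H2B, H3 and H4 and the linker histone H1 that package newly copied DNA. The set was defined as the protein-coding genes of the GENCODE M21 annotation whose names begin with Hist1h, Hist2h, Hist3h or Hist4h. It held 67 of the 22028 protein-coding genes and of the 55536 annotated genes of any class. By type there were 6 H1, 18 H2A, 18 H2B, 12 H3 and 13 H4 genes. All values come from total RNA of the chromatin fraction, sequenced after removal of ribosomal RNA, of C57BL/6J macrophages grown from bone marrow. The cells met Lipid A, the TLR4-binding part of bacterial lipopolysaccharide, at 100 ng/ml for 12 h, were washed for 12 h and met 100 ng/ml again for 25 min. The 3 libraries, replicates 1, 2 and 3, had this same treatment and were made from 1 µg, 250 ng and 500 ng of RNA. The labels list the same donor identifier for each and give neither sex nor age, and no unstimulated sample was analysed here, so the data give levels and no response.

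In a dividing cell these messages are made almost only in S phase. They end in a short stem-loop and not in a poly(A) tail. The stem-loop is bound by SLBP, and the message is cut just after it by a complex that holds the U7 snRNP and FLASH (the product of Casp8ap2). Replacement histones such as those of H3f3a, H3f3b and H2afz come from ordinary polyadenylated messages outside S phase as well. Removal of ribosomal RNA, unlike selection for poly(A), keeps messages that have no tail, and macrophages grown from marrow can still divide while they differentiate.

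The label of the gene set was checked against its sequences. A stem-loop with paired arms of 6 bases that begin with GG and a loop of 4 bases with T at its positions 1 and 3 was searched in the annotated transcripts. It was found in 46 of the 67 genes (68.7%), against 159 of 21901 protein-coding genes with a transcript searched (0.726%), a number that includes the 46. In 11 further genes the annotated transcript held coding bases and stop codon only, so no end could be searched. In 10 genes it was not found. Some of these have few bases beyond the coding ones, such as Hist1h2ah with 384 coding bases of 405, so their ends may be incomplete. Same-strand stem-loops of detected genes, picked to show each histone type and the arms of H4 beside the others, are shown here, read from GENCODE M21 transcripts, with the paired arms in capitals and the flanks and loop in lower case.
Hist2h2aa2: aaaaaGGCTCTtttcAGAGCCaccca
Hist3h2a: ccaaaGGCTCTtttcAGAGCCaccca
Hist2h2ac: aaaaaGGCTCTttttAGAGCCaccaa
Hist1h1c: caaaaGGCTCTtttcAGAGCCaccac
Hist1h2bj: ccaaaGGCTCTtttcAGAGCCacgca
Hist1h3d: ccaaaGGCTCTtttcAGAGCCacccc
Hist1h4m: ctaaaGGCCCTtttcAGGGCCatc
Hist1h4i: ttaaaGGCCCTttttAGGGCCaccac
Hist1h4b: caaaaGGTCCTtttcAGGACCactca
Hist2h4: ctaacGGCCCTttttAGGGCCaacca
Among the 46 genes the arms separated H4 from the other types. The form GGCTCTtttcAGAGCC stood in 26 genes, 3 of H1, 10 of H2A, 8 of H2B and 5 of H3, and in no H4 gene. The form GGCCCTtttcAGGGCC stood in 7 genes, all H4, and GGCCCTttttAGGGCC and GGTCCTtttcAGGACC in 2 H4 genes each. The form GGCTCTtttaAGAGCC was found in 6 genes, 1 of H1, 2 of H2B and 3 of H3. The positions on GRCm38 (mm10) were chr3:96239784-96239799 on the minus strand for Hist2h2aa2, chr11:58955172-58955187 on the plus strand for Hist3h2a and chr13:21812129-21812144 on the plus strand for Hist1h4m.

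The annotation continued past the stem-loop by very different lengths. In 23 genes it stopped within 100 bases of the stem-loop, called a short end here. In another 23 it ran more than 100 bases further, called a long end. Hist1h4m stopped 3 bases after the stem-loop, Hist2h2aa2 35 and Hist2h2ac 57, while Hist3h2a ran 1643 bases on, Hist4h4 2445 and Hist1h1d 4884. These lengths bear on the levels, because TPM (a level per length: counts divided by effective length, then brought to 1 common total) divides by them. Median effective lengths in replicates 1, 2 and 3 were 275.4, 229.2 and 244.5 bases for short ends, and 1042, 990.3 and 1006 for long ends.

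The deposited tables hold 2 quantifications of each library. The first gives expected counts and TPM per gene, and the second gives estimated counts and TPM per transcript, summed here per gene. In the first, the histone genes together received 1511, 2081 and 1509 expected counts in replicates 1, 2 and 3, of 13502401, 17848798 and 17824176 over all annotated genes. Their summed TPM was 145, 254 and 139, which is 179 ± 64.6 (SD, n = 3; every SD below is over these 3 libraries). The second quantification gave 162, 181 and 132. Replicate 2 was highest in both, and replicates 1 and 3 were close to each other in the first. In macrophages as a whole, fewer dividing cells and less histone RNA per cell cannot be told apart from these sums.

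A gene was called detected when no library had it below 1 TPM. By this rule 23 of the 67 genes (34.3%) were detected in the first quantification, where 44.0% of all protein-coding genes were. In the second it was 25 (37.3%), against 53.7% of all protein-coding genes, and 20 genes were detected in both. H4 had 8 of 13 members detected, H1 3 of 6, H2A 6 of 18, H2B 5 of 18 and H3 1 of 12. The median gene of the set stood at 0.69, 1.27 and 0.82 on the log2(TPM + 1) scale in replicates 1 to 3, above the 0.59, 0.64 and 0.59 of all protein-coding genes. In the second quantification the order was the opposite, with 0.83, 1.21 and 0.96 for histone genes against 1.65, 1.46 and 1.54 over 21951 protein-coding genes. Whether the typical histone gene lay above or below the typical protein-coding gene thus depended on the quantification. Signal was concentrated, with 5 genes at a mean of 10 TPM or more holding 43.9% of the summed TPM.

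**Figure D1:**
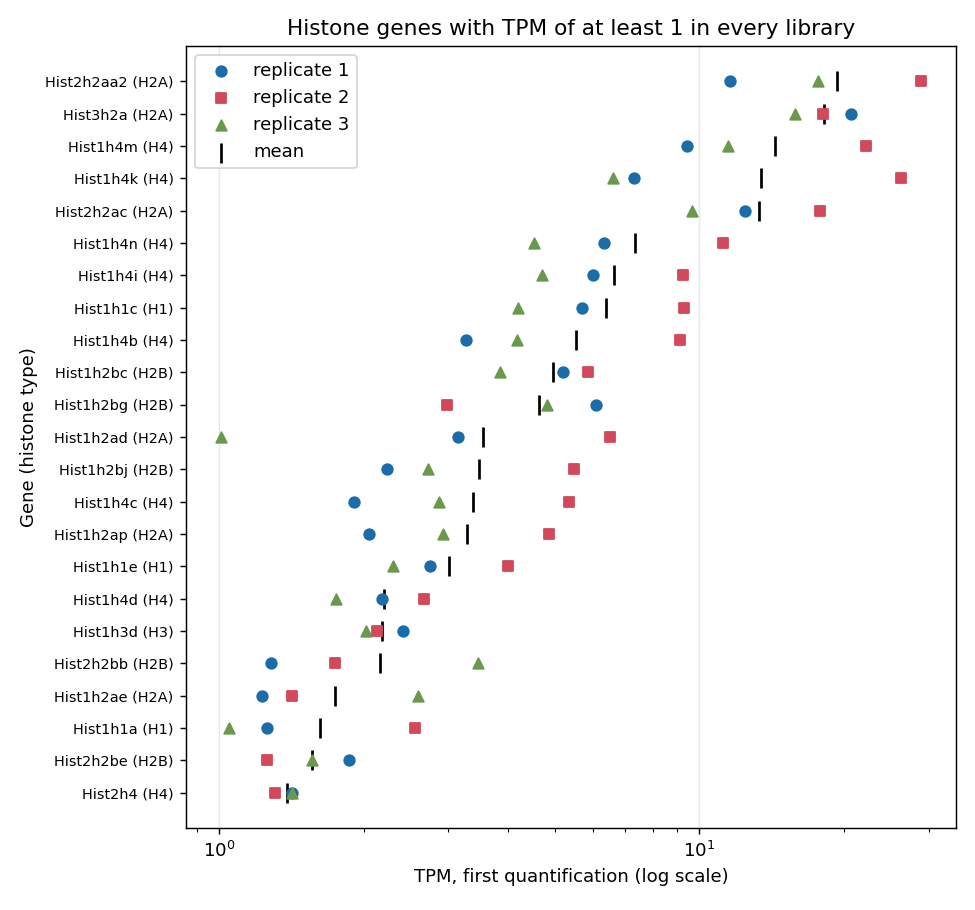
TPM of the 23 histone genes detected in the first quantification, on a log axis, with 1 point per library and a black bar at the mean. Replicate 2 (red squares) was the highest library for 16 of the 23 genes and the lowest for 3. The same share over all detected genes was not computed in TPM, so these counts do not set the histone genes apart.

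H2A was the type with the highest mean. Its 18 genes summed to 63.6, 91.6 and 56.6 TPM in replicates 1 to 3, a mean of 70.6 ± 18.5. Hist2h2aa2 and Hist2h2aa1 are neighbouring copies in the cluster on chromosome 3. Hist2h2aa2 (chr3:96239749-96240276, minus strand) stood at 11.6, 28.9 and 17.7 TPM, the highest mean of any histone gene at 19.4 ± 8.77. Hist2h2aa1 stood at 9.12, 6.16 and 0.35 TPM. Neither copy had a single window of 50 bases that no other annotated transcript shares, so the split between them is uncertain. The deposited posterior SD of the count of Hist2h2aa2 was 15.5, 11.6 and 8.65, beside counts of 49.6, 126.5 and 87.5. The sum of both copies was steadier in replicates 1 and 3, at 20.7, 35.0 and 18.0 TPM. Hist2h2aa1 also overlaps the noncoding gene Gm20634 on the same strand, which had 99.1, 115 and 113 counts. Reads in that overlap could be given to either gene, so the sum is uncertain as well.

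Hist3h2a (chr11:58954685-58956830, plus strand) had the most counts of the whole set. It received 535, 552 and 520 counts, or 20.7, 18.1 and 15.8 TPM, and was among the least variable between libraries. Its transcript of 2146 bases has 68.5% of its windows unique. It shares its first bases on the same strand with an annotated transcript of Trim17, the gene of a ubiquitin ligase, which had 97, 154 and 161 counts. Reads in the shared stretch could be given to either gene. Without Hist3h2a, a setting added after seeing the data, the H2A sum was 43.0, 73.5 and 40.8 TPM and the sum of all histone genes 124, 236 and 123.

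Hist2h2ac (chr3:96220361-96220880, minus strand) was the third H2A gene above 10 TPM. It stood at 12.4, 17.9 and 9.63 TPM from 52, 76 and 46.3 counts. Its level was nearly the same in the second quantification, with a mean of 13.3 TPM in each. Hist1h2ad was at 3.14, 6.50 and 1.01 TPM, Hist1h2ap at 2.05, 4.87 and 2.93, and Hist1h2ae at 1.23, 1.42 and 2.59. Replicate 2 was the highest library for Hist1h2ad and Hist1h2ap and replicate 3 for Hist1h2ae. The 3 genes with the highest levels held 72.1% of the H2A sum. Of the 18 H2A genes 17 overlap an annotated miRNA on the opposite strand, and Hist2h2aa2 also overlaps the antisense gene Gm20632 (49.8, 75.5 and 56.0 counts). The strand setting of the counting is not stated, so reads from both strands cannot be told apart there.

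H4 came next, with the largest SD of summed TPM of any type in both quantifications. By fold between libraries H3 differed more than H4 in both, and H1 also did in the second. All H4 genes of the mouse encode the same protein, and together they had 40.9, 99.3 and 43.1 TPM, a mean of 61.1 ± 33.1. Hist1h4m (chr13:21811746-21812147, plus strand) led at 9.43, 22.2 and 11.4 TPM. Hist1h4k (chr13:21750194-21750505, minus strand) stood at 7.29, 26.3 and 6.62 TPM. That rested on 10.9, 33.1 and 10.2 counts over an annotation of 312 bases with no ends, whose effective length was 112, 77.8 and 89.4 bases. Both genes were highest in replicate 2 in counts as well as in TPM.

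Hist1h4n was at 6.34, 11.2 and 4.52 TPM, Hist1h4i at 6.01, 9.23 and 4.70, and Hist1h4b at 3.27, 9.13 and 4.17. Hist1h4c was at 1.91, 5.35 and 2.87 TPM and Hist1h4d at 2.18, 2.67 and 1.75. In each of these 5 genes replicate 2 was the highest library. Hist2h4, the H4 gene of the chromosome 3 cluster, differed from them with 1.42, 1.31 and 1.42 TPM from 27, 29 and 34 counts. Its transcript runs 1257 bases past the stem-loop. Hist1h4m and Hist1h4n have only 10.2% and 14.4% unique windows, and their sum was 15.8, 33.4 and 15.96 TPM.

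H2B summed to 25.1, 30.3 and 21.3 TPM, a mean of 25.6 ± 4.53, with no library far from the others. Hist1h2bc was at 5.19, 5.86 and 3.85 TPM from 65.7, 85.0 and 60.7 counts. Hist1h2bg ran against most of the set, with 6.09, 2.98 and 4.82 TPM and replicate 2 lowest. Hist1h2bj was at 2.24, 5.48 and 2.72 TPM and Hist2h2be at 1.86, 1.26 and 1.56. Hist2h2bb, a coding-only annotation without a unique window, was at 1.28, 1.74 and 3.46 TPM from 3, 3.74 and 8.78 counts. Hist1h2bq and Hist1h2br are near copies with 2.68% and 11.3% unique windows. Together they had 2.64, 3.04 and 1.67 TPM, and their counts went to multi-exon transcripts, none to the single-exon ones of 381 bases.

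H1, the linker histone that binds DNA between nucleosomes, summed to 11.0, 18.9 and 8.76 TPM, a mean of 12.9 ± 5.33. Its 6 genes are mostly distinct in sequence. Hist1h1c (chr13:23738808-23740367, plus strand) held 49.5% of the sum at 5.69, 9.28 and 4.18 TPM, from 103, 195 and 94.9 counts. Hist1h1e was at 2.75, 4 and 2.30 TPM, though its annotated exon overlaps Hist1h2be on the same strand. Hist1h1a was at 1.26, 2.56 and 1.05 TPM from 9, 20 and 9 counts, all of its windows being unique. Replicate 2 was the highest library for these 3 genes. Hist1h1t, the testis form, had 1, 6 and 4 counts.

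H3 was the lowest type. It summed to 4.17, 13.6 and 9.41 TPM, a mean of 9.07 ± 4.73 over 12 genes. Only Hist1h3d was detected, and it was even between libraries at 2.41, 2.13 and 2.02 TPM from 33.5, 34.2 and 35 counts. Hist2h3b stood at 0.20, 3.74 and 2.93 TPM but has no unique window. In TPM of the first quantification the H3 and H4 sums were higher in replicate 3 than in replicate 1, and those of H2A, H2B and H1 were lower. For H4 this turned in the second quantification, with 48.3 TPM in replicate 1 and 39.1 in replicate 3.

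The order of the types was H2A, H4, H2B, H1 and H3 by mean TPM. Neighbours were compared as log2 ratios within each library, in 1 family of 6 tests with exact two-sided sign-flip tests, for which the smallest possible p with 3 libraries is 0.25. H2A exceeded H4 by 0.30 ± 0.38, positive in 2 of 3 libraries (exact p = 0.5, adjusted 0.5). H4 exceeded H2B by 1.15 ± 0.52 and H2B exceeded H1 by 1.05 ± 0.32, each positive in 3 of 3 libraries (exact p = 0.25, adjusted 0.375 for both). H1 exceeded H3 by 0.59 ± 0.76, positive in 2 of 3 (exact p = 0.5, adjusted 0.5). No difference could pass 0.05 in this design. Per annotated length, H2A and H4 did not differ beyond their spread, nor did H1 and H3. The steps from H4 to H2B and from H2B to H1 were seen per annotated length and not without it. In CPM (counts scaled to library size, not per length, and brought to a common scale with TMM factors) H4 had 14.2, 24.3 and 13.5, H2B 20.4, 17.7 and 14.2 and H1 14.8, 23.8 and 12.4. On that scale, added after seeing the data, the log2 ratio of H4 to H2B was -0.05 ± 0.49 and that of H2B to H1 0.08 ± 0.45. There H2A exceeded H4 by 1.53 ± 0.36 and H1 exceeded H3 by 1.98 ± 0.40. Without Hist3h2a the CPM of H2A were 14.2, 20.1 and 11.9, not above those of H4.

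**Figure D2:**
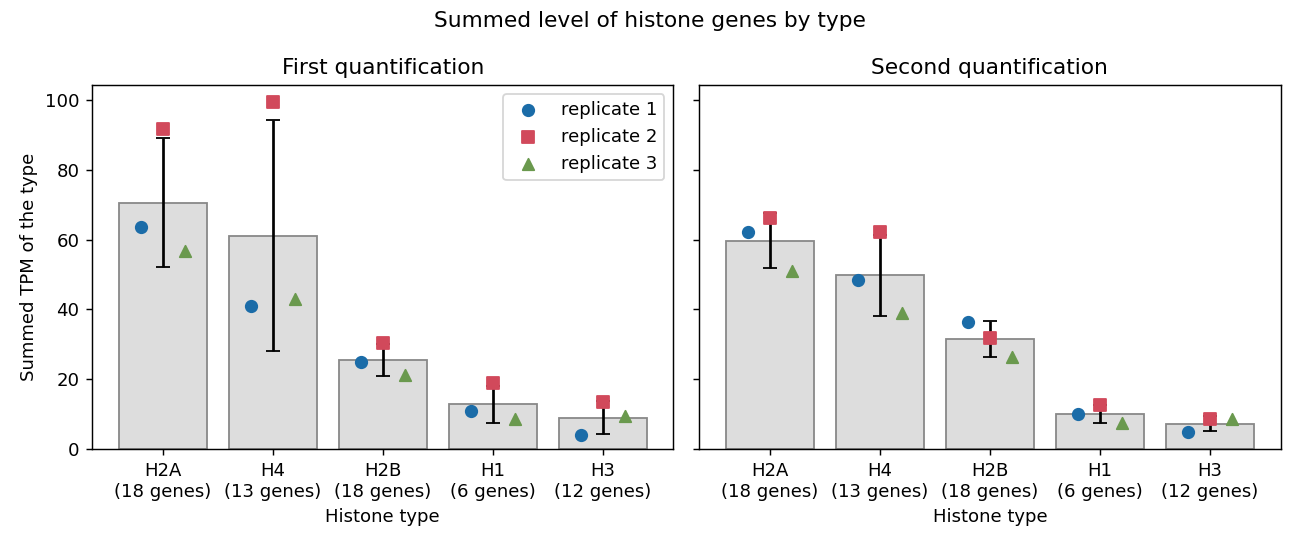
Summed TPM of each histone type in the first (left) and second (right) quantification; bars are means, error bars SDs and points the 3 libraries. The order by mean was H2A, H4, H2B, H1, H3 in both, and H4 in replicate 2 was at 99.3 TPM in the first and 62.1 in the second.

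By cluster, Hist1 on chromosome 13 held 54 genes and summed to 83.8, 172 and 84.4 TPM. Hist2 on chromosome 3 held 10 genes within chr3:96219865-96270132 and summed to 39.6, 62.0 and 38.4 TPM. Hist3 on chromosome 11 has 2 genes, Hist3h2a and Hist3h2ba, and 20.9, 18.4 and 15.99 TPM, nearly all from Hist3h2a. Hist4 is the single gene Hist4h4 on chromosome 6 at 0.51, 0.81 and 0.35 TPM. Detected genes numbered 17 of 54 in Hist1, 5 of 10 in Hist2, 1 of 2 in Hist3 and 0 of 1 in Hist4. Within Hist1, gaps over 100000 bases separate 4 groups. The first, with 18 genes (chr13:21715763-21837530), summed to 31.7, 84.0 and 34.2 TPM. The group of 29 genes (chr13:23531050-23764406) summed to 43.0, 73.4 and 42.5 and that of 5 genes to 9.19, 15.1 and 7.71. The last, Hist1h2aa and Hist1h2ba, which encode testis histones, had no count in any library.

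Of all 67 genes, 7 had 0 expected counts in every library. They were Hist1h2aa, Hist1h2ah, Hist1h2ao, Hist1h2ba, Hist1h2bh, Hist1h3g and Hist2h3c1. A count of 0 allows up to 3 counts, or between 0.110 and 1.37 TPM for these genes, so the shorter ones could have reached the detection bound. This limit covers counting error only. Hist1h2aa, Hist1h2ba, Hist1h3g and Hist2h3c1 were at 0 in the second quantification as well. Hist1h2bh was not, with 3.52, 23.9 and 14.03 estimated counts there, so both quantifications differ on whether it had reads.

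Replicate 2 stood apart for much of the set. On CPM with TMM factors, which align libraries on the bulk of their genes, 38 of the 60 histone genes with a count (63.3%) were highest in replicate 2. Of all protein-coding genes with a count, 36.5% were. The histone sum was 103, 125 and 86.0 CPM. The ratio of replicate 2 to the mean of replicates 1 and 3 was 1.32 for the whole set, 1.76 for H4, 1.75 for H1, 1.51 for H3, 1.15 for H2A and 1.02 for H2B. The values for H2A and the whole set depended on Hist3h2a. Without it, a setting added after seeing the data, H2A had 14.2, 20.1 and 11.9 CPM and the whole set 66.5, 91.5 and 56.3. By annotated end it was 1.78 for short ends and 1.20 for long ends. The long ends had 70.2, 77.3 and 58.2 CPM and the short ends 17.2, 28.4 and 14.7. Of the CPM of long ends, 36.5, 33.2 and 29.8 came from the Hist3 cluster, nearly all from Hist3h2a. The lower ratio of long ends thus depended in part on that gene. For long ends the ratio was 1.26 on TPM of the first quantification and 0.911, the reverse direction, on TPM of the second. With the second rescaled to a fixed total over protein-coding genes it was 1.17, from sums of 139, 155 and 127.

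**Figure D3:**
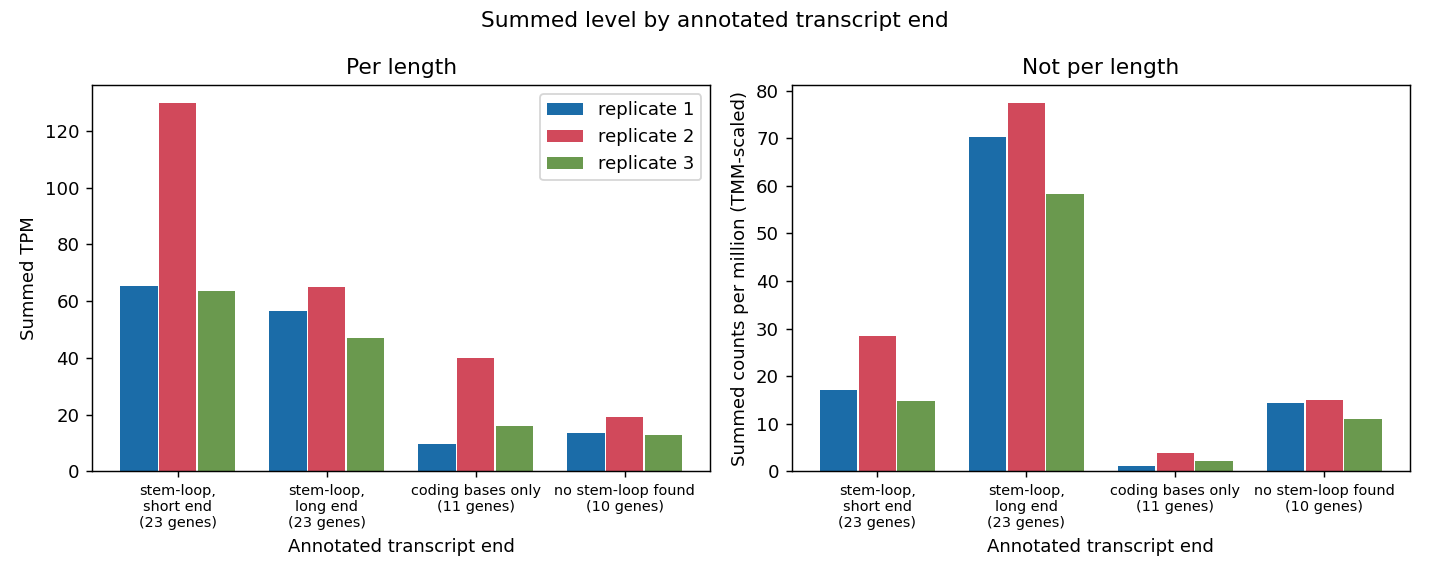
Summed level of the 67 genes by annotated transcript end in TPM (left) and TMM-scaled CPM (right), with 1 bar per library. Short ends led in TPM (65.4, 130 and 63.5) and long ends in CPM (70.2, 77.3 and 58.2), and replicate 2 was the highest bar in each class.

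Replicate 2 also had the smallest RNA input, the lowest effective length in each end class and TMM and size factors of 0.936 and 1.03, against 1.09 and 0.911 in replicate 1 and 0.982 and 1.08 in replicate 3. Their part in the histone difference was not tested. Markers of S phase did not move alike. Of 11 S phase genes, 7 were highest in replicate 2, but their summed CPM in replicate 2 were 0.820 times the mean of the others. That direction rested on Mki67, a proliferation marker with 115, 52.4 and 91.8 CPM. Without it, a setting added after seeing the data, the other 10 genes summed to 71.8, 95.8 and 83.3 CPM, a ratio of 1.24, on the same side of 1 as the ratio of the histone genes. In TPM of the second quantification the 11 genes summed to 100, 77.9 and 86.4, of which Mki67 had 20.1, 6.35 and 15.2. There the other 10 genes summed highest in replicate 1, and replicate 2 lay below the mean of replicates 1 and 3. The side of 1 thus differed between CPM and TPM of the second quantification. That TPM was not rescaled to protein-coding genes for this list. For long ends the same rescaling moved the ratio from 0.911 to 1.17, so the unscaled direction is uncertain here. Per length, Mki67 stood at 12.8, 5.52 and 9.85 TPM and Pcna, the DNA polymerase clamp, at 24.7, 17.0 and 17.5. Mcm7, of the replicative helicase, stood at 4.16, 9.70 and 5.35 TPM, and Rrm2, of ribonucleotide reductase, at 0.62, 1.73 and 0.42. All 8 macrophage markers were detected, from Itgam at 28.2 to 38.9 TPM to Adgre1 at 248 to 353. In the first quantification none of the 4 neutrophil, 3 T cell, 3 B cell and 3 fibroblast genes was detected, and the summed TPM of each list was at most 1.29 in any library. S100a8 and Cd3e had 0 counts in each library. In the second, 2 T cell genes and 1 fibroblast gene passed, and the T cell list summed to 16.9, 8.88 and 17.2 TPM. Fibroblast collagen genes differed between libraries, with 0, 32 and 42 counts of Col1a1.

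Replacement histones gave the scale for these levels. The 11 genes of that list summed to 452, 462 and 409 TPM, and 8 were detected. H3f3b, which encodes the replacement H3, stood at 302, 297 and 262 TPM. That is above the sum of all replication-dependent histone genes in every library. H3f3a, its second gene, was at 33.6, 31.0 and 18.9 TPM, H2afy (macroH2A) at 85.0, 91.9 and 88.9 and H2afz (H2A.Z) at 13.6, 16.2 and 17.3. In the second quantification H3f3a was higher, at 95.9, 68.6 and 59.6 TPM, and H3f3b lower, at 279, 201 and 215. H1f0, the replacement linker histone, was at 6.13, 4.67 and 3.71 TPM. The set lay below the replacement histones by 1.64, 0.86 and 1.56 log2 units of summed TPM, a mean log2 ratio of -1.35 ± 0.43, lower in 3 of 3 libraries (exact sign-flip p = 0.25, adjusted 0.375). The difference of medians was -1.83 ± 0.52 on the log2(TPM + 1) scale, also with exact p = 0.25 and adjusted 0.375.

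Genes that make and process histone messages were mostly present. Of 17 genes for 3' end processing and decay, 15 were detected. Slbp, whose protein binds the stem-loop, stood at 19.4, 19.9 and 15.5 TPM. Casp8ap2, which encodes FLASH, was at 7.68, 7.75 and 7.40 TPM, and Lsm10, of the U7 snRNP, at 2.66, 3.43 and 3.92. Its partner Lsm11 was under the bound at 0.24, 0.46 and 0.36 TPM. Zfp473, which also acts with the U7 snRNP, was at 0.29, 0.33 and 0.25. Both passed in the second quantification, Lsm11 at 6.06, 1.97 and 3.43 TPM and Zfp473 at 2.48, 1.33 and 1.62, so their absence from the detected genes depended on the quantification. All 17 processing genes and all 9 transcription regulators were detected there. In the first, of 9 transcription regulators 7 were detected, among them Npat, the coactivator of histone loci, at 4.64, 3.64 and 4.41 TPM and Hinfp, which binds H4 promoters, at 29.1, 29.8 and 26.6. The cyclin genes Ccne1 (1.52, 0.81 and 1.71 TPM) and Ccna2 (0.91, 1.77 and 1.01), which act at S phase entry and in S phase, were each under the bound in 1 library. Histone chaperones were detected for 8 of 9 genes, led by Atrx at 318, 234 and 259 TPM and Daxx at 141, 91.9 and 74.9, whose products together deposit replacement H3. Asf1b, a chaperone linked to dividing cells, had 3, 7 and 5 counts.

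Many H2A and H2B genes lie head to head with their starts under 500 bases apart. There were 12 such pairs, each of 1 H2A and 1 H2B gene, and several had members at unequal levels. Hist2h2ac and Hist2h2be start 239 bases apart and had mean levels of 13.3 and 1.56 TPM, with Hist2h2ac higher in every library. Their annotated lengths differ, at 520 and 2620 bases, and in counts Hist2h2be was the higher in replicates 1 and 3. Hist1h2ac and Hist1h2bc, 251 bases apart, were at 0.56 and 4.97 TPM and did not overlap. Hist1h2ae and Hist1h2bg, 176 bases apart, were at 1.75 and 4.63 TPM. For Hist1h2ad and Hist1h2bf the H2A gene led with 3.55 against 0.91 TPM, although in replicate 3 they stood at 1.01 and 1.12. Hist1h2ag and Hist1h2bj, 270 bases apart, were at 0.203 and 3.48 TPM, with Hist1h2bj higher in every library. Not every pair showed such a gap. Hist1h2ak and Hist1h2bn had means of 1.35 and 1.21 TPM, and Hist1h2aa and Hist1h2ba were both at 0.

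**Figure D4:**
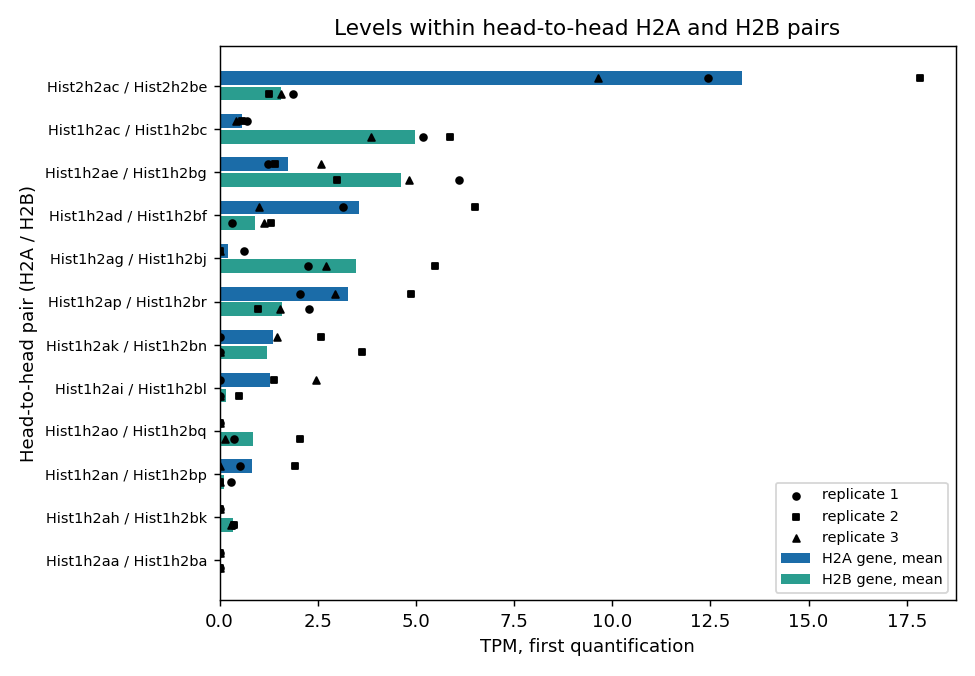
Mean TPM (bars) and library values (points) of the H2A and H2B gene in each of 12 head-to-head pairs. In Hist2h2ac and Hist2h2be the H2A gene was higher (13.3 against 1.56 TPM), in Hist1h2ac and Hist1h2bc the H2B gene (0.56 against 4.97).

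The promoters of the set share short elements. RefSeq promoters on GRCm38.p6, from 250 bases before to 50 after the start, were matched by gene ID for 62 of the 67 genes and searched on both strands. Promoters of head-to-head genes can overlap, and a site in the overlap counts for both genes. Hist1h2ae and Hist1h2bg share their TATAAA and octamer sites in this way. TATAAA, the core of the TATA box, was present in 35 (56.5%), against 13.6% of 32851 promoters. CCAAT, the box bound by NF-Y, was present in 53 (85.5%, against 37.4%), in each matched H1, H2A, H2B and H3 gene but in 3 of 12 H4 genes. The octamer ATTTGCAT, bound by Pou2f1 (Oct-1), was present in 13 (21%, against 1.74%), 7 of H2A and 6 of H2B and no other type. AAACACA, the AC box known from H1 genes, was present in 9 (14.5%, against 7.18%), 5 of them among the 6 H1 genes. A match describes these letters anywhere in the promoter. It is not evidence of binding or of a place at a set distance from the start. The promoters of Hist2h2ac (chr3:96220831-96221130, minus strand), Hist1h2bg (chr13:23571150-23571449, plus strand), Hist1h1c (chr13:23738557-23738856, plus strand) and Hist1h4m (chr13:21811496-21811795, plus strand) are printed as examples of H2A, H2B, H1 and H4, elements in capitals on either strand.
Hist2h2ac: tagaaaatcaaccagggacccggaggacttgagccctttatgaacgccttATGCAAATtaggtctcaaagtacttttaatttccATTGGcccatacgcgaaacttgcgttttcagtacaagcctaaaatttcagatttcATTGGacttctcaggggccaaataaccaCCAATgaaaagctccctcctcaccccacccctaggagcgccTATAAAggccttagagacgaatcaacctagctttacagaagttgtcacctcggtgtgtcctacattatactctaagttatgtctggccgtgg
Hist1h2bg: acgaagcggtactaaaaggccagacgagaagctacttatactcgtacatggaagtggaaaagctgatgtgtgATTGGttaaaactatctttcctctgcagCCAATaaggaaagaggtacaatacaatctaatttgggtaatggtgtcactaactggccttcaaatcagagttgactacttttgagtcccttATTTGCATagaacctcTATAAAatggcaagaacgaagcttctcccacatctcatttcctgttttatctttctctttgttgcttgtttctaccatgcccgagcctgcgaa
Hist1h1c: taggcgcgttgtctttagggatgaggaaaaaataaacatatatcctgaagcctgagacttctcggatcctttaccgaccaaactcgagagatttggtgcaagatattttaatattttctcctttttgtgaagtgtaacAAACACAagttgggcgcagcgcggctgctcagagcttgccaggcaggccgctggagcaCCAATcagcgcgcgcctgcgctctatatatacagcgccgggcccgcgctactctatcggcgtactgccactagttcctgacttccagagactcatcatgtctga
Hist1h4m: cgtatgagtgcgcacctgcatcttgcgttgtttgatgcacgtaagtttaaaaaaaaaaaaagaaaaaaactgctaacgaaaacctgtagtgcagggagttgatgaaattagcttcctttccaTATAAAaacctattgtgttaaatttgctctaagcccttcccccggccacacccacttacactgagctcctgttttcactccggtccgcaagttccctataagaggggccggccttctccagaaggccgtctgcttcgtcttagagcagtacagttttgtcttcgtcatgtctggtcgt
The H2A and H2B promoters hold TATAAA, the CCAAT box and the octamer. That of Hist1h1c holds the CCAAT box and the AC box, and that of Hist1h4m holds TATAAA alone. In Hist1h4m the TATAAA letters lie well before the start. Only exact letters were searched, so a TATA-like stretch near the start, as in Hist1h1c, was not marked. Hist1h2bg and Hist2h2ac, which share 3 elements, had means of 4.63 and 13.3 TPM.

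Levels in both quantifications were correlated, but the leading gene differed. Hist2h2aa2 was the highest gene of the first and the fourth of the second, which Hist1h4k led. Across the 67 genes Pearson's r of log2(mean TPM + 1) was 0.942, a description in which genes share libraries and near-identical sequence. Sharing of sequence limits both: 21 genes have under 25% unique windows, 5 have none, and the median gene has 45.9%. The highest means in the second were those of Hist1h4k (15.3 TPM), Hist3h2a (14.4), Hist2h2ac (13.3), Hist2h2aa2 (11.2) and Hist1h4m (8.23). Hist1h2bg (7.75), Hist1h2bc (5.58), Hist1h4n (5.44), Hist1h4i (5.16) and Hist2h2aa1 (4.61) followed. The largest ratios between quantifications were those of Hist4h4, Hist1h2bf and Hist2h2ab, higher in the second, and of Hist2h2aa2 and Hist1h4m, higher in the first. Only Hist4h4 passed 2-fold on the TPM + 1 scale, with 0.51, 0.81 and 0.35 TPM in the first and 3.09, 1.25 and 2.38 in the second.

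**Figure D5:**
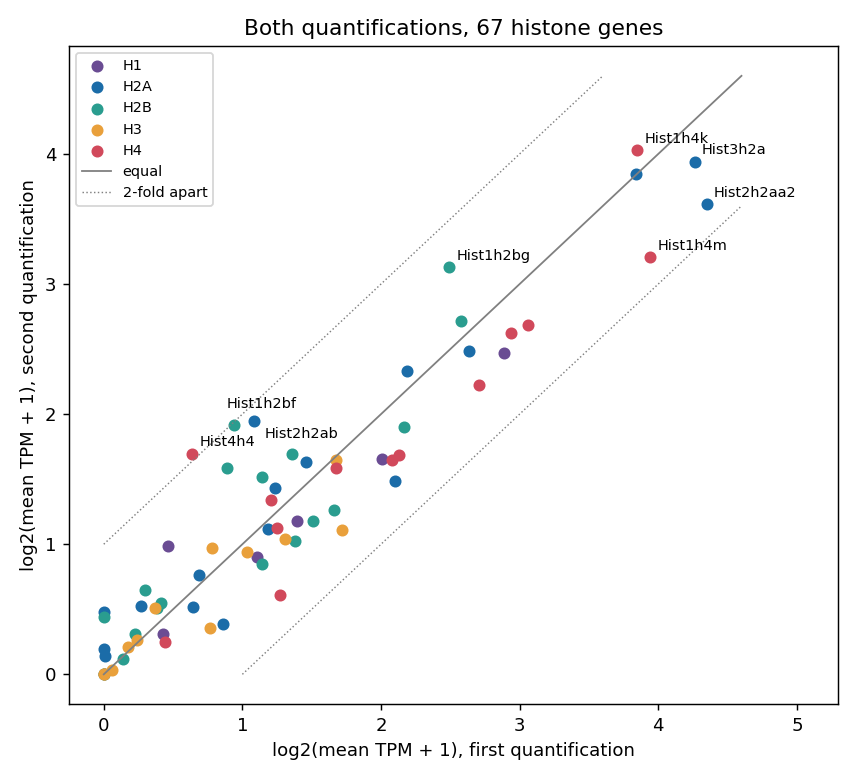
Mean level of each of the 67 genes as log2(TPM + 1) in the first (x) and second (y) quantification, coloured by histone type; the solid line marks equality and dotted lines a 2-fold difference. Hist4h4 alone lay beyond 2-fold, and r was 0.942.

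The spread between libraries was summarised as the biological coefficient of variation (BCV) from edgeR. Of the 67 genes 24 had enough counts, with a median BCV of 0.249 against 0.203 over 14193 genes. The median was 0.238 for the 13 genes with long ends and 0.266 for the 7 with short ends. Hist3h2a was among the steadiest at 0.183 and Hist1h4k the most variable at 0.355.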

How the data were processed

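The deposited tables hold ribosome-depleted total RNA of the chromatin fraction from 3 macrophage libraries of 1 condition. Per the file headers, the authors' gene table gives expected counts, TPM, posterior mean TPM, the posterior SD of the count and effective length. Its columns carry the names the program RSEM uses. Another transcript table gives, per the file headers, estimated counts and TPM under the names kallisto uses. The deposited notes name mm10 and GENCODE M21. No aligner, program version or strand setting is stated in the sources used here, so overlapping and antisense genes are uncertain, and shared reads were divided between copies.

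Depth over annotated genes was 13502401, 17848798 and 17824176 expected counts. Rows that are no annotated gene held 1.75%, 0.396% and 0.239% of counts and were left out. Rounded expected counts, as whole numbers, went into edgeR 4.0.16 in R 4.3.3 (filterByExpr, TMM, intercept-only estimateDisp). The BCV of single genes is moderated towards the trend. On data simulated with a known BCV it was lower than the truth for strongly variable genes. DESeq2 1.42.0 gave size factors as an alternative. Other work used Python 3.11.15, numpy 2.4.6, pandas 2.3.3 and matplotlib 3.10.9. Transcripts were searched for stem-loops, and windows of 50 bases were compared with every annotated transcript on both strands to count unique ones. A pseudocount of 1 was used on log2 levels.

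The gene set and the comparison lists were chosen with earlier results of these data known. The genes named are the detected ones, the 10 highest of the second quantification, the 5 with the largest ratio between quantifications, those with 0 counts and those of the comparison lists. Genes outside this rule that are named (Hist1h1t, Hist1h1d, Hist2h3b, Hist1h2ac, Hist1h2ag, Hist1h2ak, Hist1h2bn, Hist1h2bq, Hist1h2br, Hist3h2ba, Hist1h2be, Trim17, Gm20628, Gm20632 and Gm20634) were chosen after their values were seen. The labels do not say that the replicates came from separate animals, so the spread may be technical in part. Alternatives were the second quantification, posterior mean TPM, TPM rescaled to protein-coding genes, other detection bounds, CPM scalings, another pseudocount, no filter, and leaving out each replicate. One further marker list is not reported here.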

Additional observations from a re-analysis of the deposited data

How the results depend on the processing

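No paired analysis was possible because all 3 libraries belong to 1 group. Rescaling TPM to a fixed total over protein-coding genes raised the detected members from 23 to 36, their summed level to 665, the sums of H1, H2A, H2B, H3 and H4 to 47.7, 261, 94.3, 34.2 and 228, those of the Hist1 to Hist4 clusters to 423, 173, 67.7 and 2.05, and the members over 2-fold apart between quantifications from 1 to 8. A detection bound of 2 TPM left 15 members. With the second quantification the sums were 31.6 for H2B, 14.9 for Hist3 and 2.24 for Hist4. As CPM the set summed to 104 with TMM and 103 with DESeq2 size factors, units not per length. Without a count filter the median BCV was 0.420 over 59 members. Rescaling, CPM and the filters change the unit or the genes entered by construction, and the cause of the changes with the second quantification was not tested.

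Leaving out each replicate in turn gave 25 to 29 detected members and a summed TPM of 142 to 199. By type the sums ran from 9.89 to 15 (H1), 60.1 to 77.6 (H2A), 23.2 to 27.7 (H2B), 6.79 to 11.5 (H3) and 42.0 to 71.2 (H4). By cluster they ran from 84.1 to 128 (Hist1), 39.0 to 50.8 (Hist2), 17.2 to 19.6 (Hist3) and 0.43 to 0.66 (Hist4). The H4 sum was lowest without replicate 2. The median BCV ran from 0.205 to 0.267, and 0 members (without replicate 1) to 3 (without replicate 2 or 3) were over 2-fold apart. The 6 within-library differences kept their direction under each alternative run except 1. As CPM, not per length, the log2 ratio of H4 to H2B was -0.05. For long annotated ends, replicate 2 over the others was 1.20 in CPM and 1.26 in TPM of the first quantification, 0.911 in TPM of the second and 1.17 in the second rescaled to protein-coding genes; the cause was not tested. For S phase markers in CPM it turned from 0.820 to 1.24 without Mki67. Low counts limit the set: 21 members had at least 10 expected counts in every library.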
